A study of Mus musculus with 4 samples.

Results

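Gene expression at 20 h after cOS-pulse was compared with the control in NIH-3T3:Per2-Luc, a mouse fibroblast line that carries luciferase under the *Per2* promoter. The comparison used 2 of the 4 arrays of the series, identified by their labels. The cOS-pulse (critical oxidative stress) was 5 mM H2O2 for 10 min, and RNA was taken 20 h later. Control cells received fresh medium with 0 mM H2O2, and their label gives 4 h, so the effect of the pulse and the difference in time after the medium change cannot be told apart. The other 2 arrays, at 4 h and 32 h after the same pulse, are shown beside each gene, and they share the same control. There was 1 array per condition, all on 1 slide, so no difference was tested and no p-value is given. The cells are 1 line, and whether cultures were pooled is not given in the sources used here. In RNA from whole cultures, fewer cells that express a gene and less RNA per cell cannot be told apart.

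H2O2 at this dose oxidizes proteins, lipids and DNA, and fibroblasts answer with antioxidant, heat shock and p53 programs that run for hours. Fresh serum-containing medium is itself a stimulus for fibroblasts: it induces growth-related transcription factors, contractile genes and secreted matrix proteins, and it resets the circadian clock. Cholesterol synthesis is controlled by SREBP2, a transcription factor held in the ER that is released when the membrane runs low in sterol.

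All 11 fibroblast markers were detected on every array, with *Dcn* (decorin) the brightest in the control. The log2 of their summed level was 10.13 in the control and 9.93 at 20 h, a sum that the brightest probes carry. Singly, 10 of the 11 were lower at 20 h, and 3 were at least 2-fold lower: *Thy1*, a surface protein of fibroblasts, with 4.92 in the control and 3.54 at 20 h, *Col1a1* and *Col3a1*. None of the 6 skeletal muscle markers was detected in the control or at 20 h. Of the other lists, 2 of 7 epithelial markers were detected in the control and 3 at 20 h. On each of these 2 arrays, 4 of 7 leukocyte, 3 of 5 endothelial, 1 of 6 adipocyte and 3 of 5 neuronal markers were detected. The brightest neuronal marker, *Snap25*, had 3.92 in the control and 2.92 at 20 h, while *Tubb3* went up, from -2.21 to -1.52. *Syt1* was detected in the control but not at 20 h, and *Rbfox3* at 20 h alone. The brightest leukocyte probe, *Itgam*, had levels of 4.35 in the control and 3.42 at 20 h. For the other detected leukocyte markers the log2 ratio of 20 h over the control was 0.20 (*Cd68*), 0.08 (*Cd3e*) and -0.26 (*Csf1r*). *Ptprc*, the defining surface protein of leukocytes, was not detected on either array. The part of such cells in the results was not tested.

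Levels are log2 signals relative to the 75th percentile of each array, and a probe is called detected where the scanner software flagged it as well above background. Of 39429 probes, 20448 (51.9%) were detected on both arrays and had a ratio. The distribution was narrow. The median log2 ratio of 20 h over the control was -0.0034, with an interquartile range from -0.20 to 0.17, and 90.9% of the probes lay within 1.5-fold. At least 2-fold higher at 20 h were 144 probes (0.704%), and at least 2-fold lower were 420 (2.05%), 2.92 times as many. This balance turned with the scaling, to 491 higher and 194 lower without scaling. With spike-in scaling it was 293 and 259, but 180 and 348 without 1 spike-in probe that departed from the other 7. The error of a single log2 ratio, taken from the scanner software for both spots, had a median of 0.205, and it covers the spot and not the culture. Probes printed in 10 spots gave an SD between spots with a median of 0.049 over 228 probes.

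**Figure D1:**
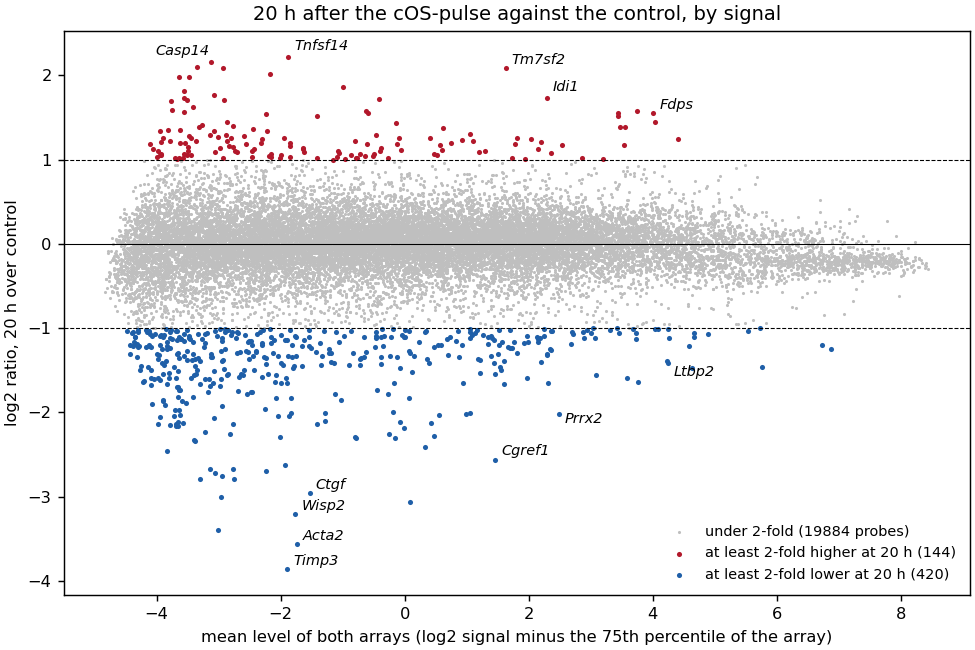
Log2 ratio of 20 h over the control (vertical axis) against the mean level of both arrays (horizontal axis), 1 point per probe detected on both arrays. The 144 probes at least 2-fold higher (red) and the 420 at least 2-fold lower (blue) lie outside the dashed lines, and the longest tail, with Timp3, Acta2, Wisp2 and Ctgf, is below 0.

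The plot of ratio against level shows that the probes past 2-fold were most frequent among dim probes. Of the 5112 dimmest probes, 66 were at least 2-fold higher and 199 at least 2-fold lower, against 16 and 49 of the 5112 brightest. Probes of 1 gene did not always move together. Of 44 genes with a probe at least 2-fold higher and another probe with a ratio, 34 had every probe above 0, and of 93 such genes on the lower side 63 had every probe below 0. With 1 value per gene (the brightest probe), 115 of 15789 genes were at least 2-fold higher (0.728%) and 346 lower (2.19%). At 1.5-fold the shares were 3.41% higher and 5.64% lower. These 4 shares are the background for the gene lists that follow.

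Among 35 gene lists, those of cholesterol synthesis and uptake lay furthest above 0, and those of TGF-beta and BMP feedback genes, contractile genes and collagen chains lay furthest below. The median over all genes was -0.00061. The distance of a list from that median moved by at most 0.19 under the 3 alternatives that do not shift every gene alike, while the zero itself shifted with the scaling. Before scaling, the 75th percentile of the 20 h array lay 0.33 above that of the control on the log2 scale, and without scaling the median over all genes moved up by 0.33.

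**Figure D2:**
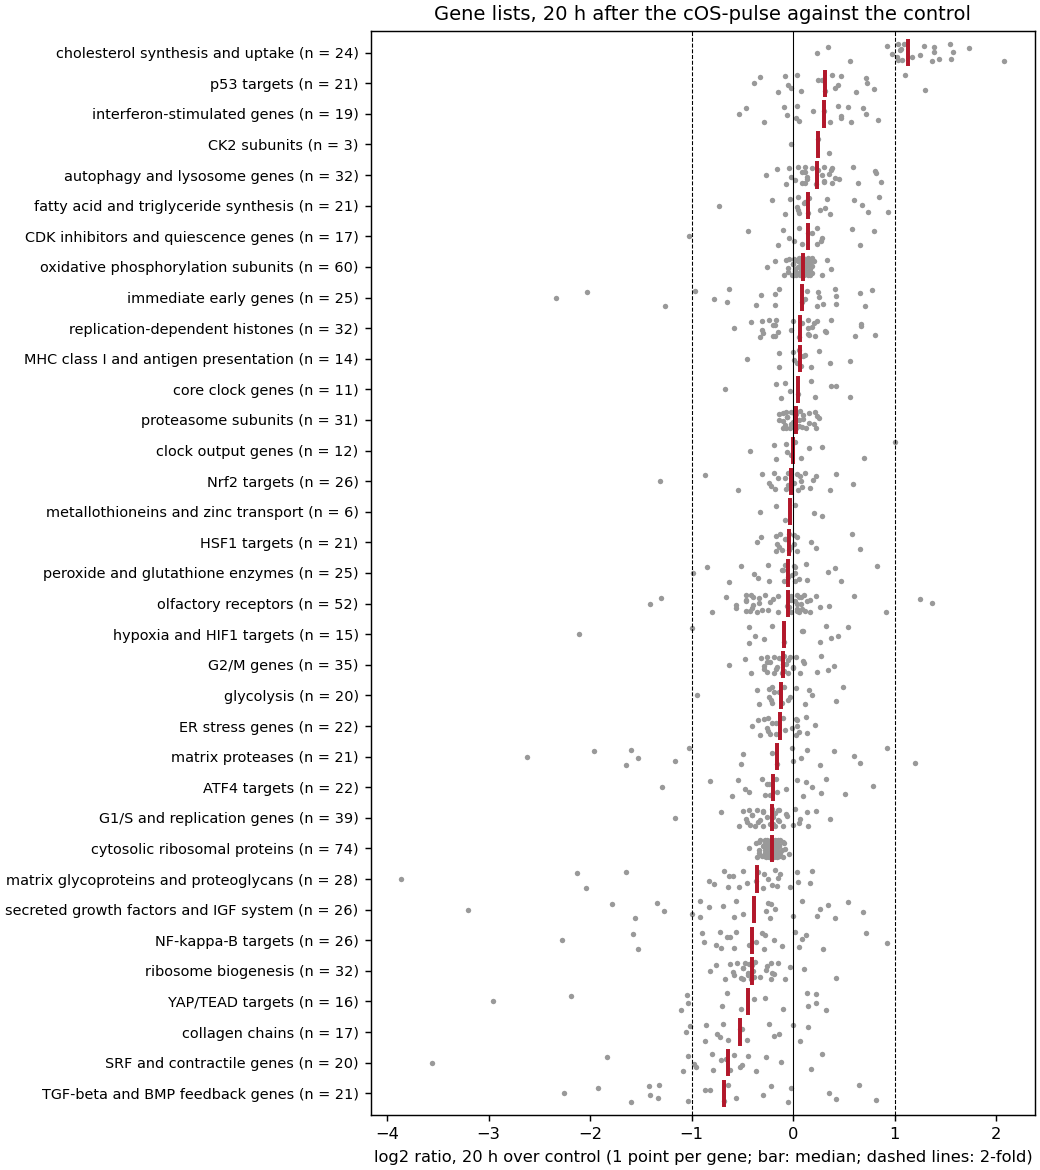
Log2 ratio of 20 h over the control for each gene (grey points) of 35 lists, with the median of each list as a red bar and dashed lines at 2-fold. The cholesterol list has its median at 1.13 and every gene above 0, while the TGF-beta and BMP, contractile, collagen and TEAD target lists have medians between -0.68 and -0.45.

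Genes of cholesterol synthesis and uptake were higher at 20 h as a group. All 24 members with a ratio were above 0, 19 were at least 2-fold higher (background 0.728%) and 21 at least 1.5-fold higher, and the median log2 ratio was 1.13 (2.19-fold). In the mevalonate steps, *Hmgcs1*, which makes HMG-CoA, had levels of 2.77 in the control, 2.48 at 4 h, 4.16 at 20 h and 4.497 at 32 h, and it rose 2.61-fold at 20 h (log2 ratio 1.38 ± 0.20). The kinases *Mvk* and *Pmvk* rose 2.26-fold and 2.38-fold, and *Mvk* stood at 1.67 on the 4 h array, below its control level of 2.94.

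The isoprenoid steps rose as well. *Idi1*, the isopentenyl diphosphate isomerase (mm9 chromosome 13, 8891524 to 8891583), had 1.42 in the control, 2.26 at 4 h, 3.15 at 20 h and 3.45 at 32 h, a 3.31-fold rise at 20 h (log2 ratio 1.73 ± 0.20). *Fdps*, which makes farnesyl diphosphate, had 3.23, 3.87, 4.78 and 5.13 and rose 2.93-fold. For both genes the control was the lowest of the 4 arrays and 32 h the highest.

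The sterol steps followed. *Sqle* (squalene epoxidase) rose 2.62-fold from 2.86 in the control to 4.25 at 20 h, and *Cyp51*, which demethylates lanosterol, rose 2.71-fold from -0.85 to 0.59. *Sc4mol* (now *Msmo1*), the next oxidase, had 2.96, 3.89, 4.54 and 4.82 on the 4 arrays and rose 2.98-fold. The largest ratio of the list was that of *Tm7sf2*, a sterol reductase (mm9 chromosome 19, 6062882 to 6062941), with 0.59 in the control, 1.96 at 4 h, 2.67 at 20 h and 3.64 at 32 h, a log2 ratio of 2.08 ± 0.20 (4.23-fold), and its second probe gave 1.86. The reductase *Dhcr7* and the isomerase *Ebp* moved least, with log2 ratios of 0.23 and 0.34, both under 1.5-fold. *Fdft1* (squalene synthase) had -0.06, 0.04, 1.31 and 1.55 and rose 2.59-fold, with its 4 h level still at that of the control.

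Among regulators, *Insig1*, which retains the SREBP complex in the ER, had -1.36, 0.13, 0.19 and 0.38 and rose 2.94-fold. *Srebf2*, the gene of SREBP2, had a log2 ratio of 0.97 ± 0.21, just under 2-fold. Across the list the 20 h level was above the 4 h level in 24 of 24 genes (41.6% of all genes), and the 32 h level was above the 20 h level in 23 of 24, all but *Srebf2* (47.3% of all genes).

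**Figure D3:**
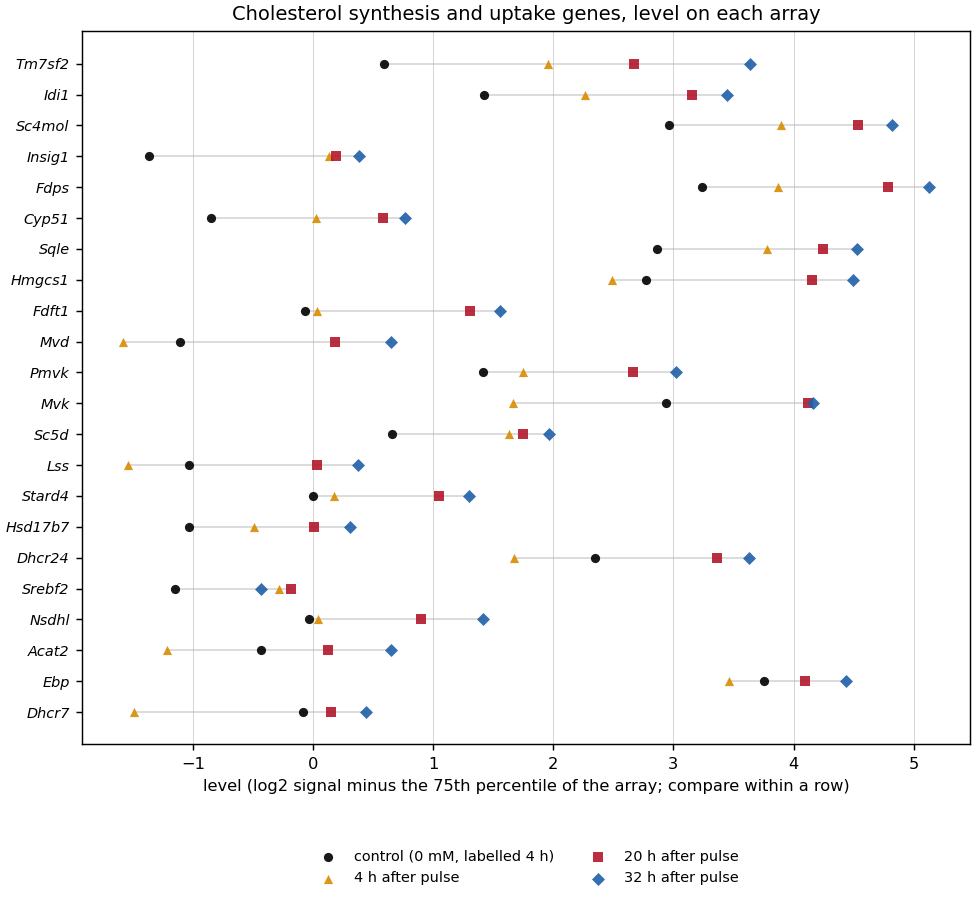
Level of 22 of the 24 cholesterol synthesis and uptake genes on each of the 4 arrays, 1 row per gene, ordered by the ratio of 20 h over the control. The 20 h square is to the right of the control circle in every row, and the 32 h diamond is to the right of the 20 h square in all rows but that of Srebf2.

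The related list of fatty acid and triglyceride synthesis moved less, with a median of 0.15, none of 21 genes past 2-fold, 5 at least 1.5-fold higher and 1 lower. *Scd2*, a stearoyl-CoA desaturase, had levels of 5.02 in the control and 5.95 at 20 h (log2 ratio 0.93 ± 0.20), and *Elovl6*, a fatty acid elongase, had 0.84. The lysosome and autophagy list had a median of 0.24, with 27 of 32 genes above 0 and 5 at least 1.5-fold higher, led by *Atg12*, a ubiquitin-like autophagy protein (0.86), *Neu1*, a lysosomal sialidase (0.82), and *Tfeb*, a regulator of lysosomal genes (0.81).

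To show what the promoter of a gene that rose looks like, RefSeq promoters (GRCm38.p6) were searched for a sterol regulatory element, TCACNCCAC, on both strands in the 250 bases before the start. This element was added after the values were seen. Of 17 list members with a promoter in the table, 1 held it, *Hmgcs1*, against 1.23% of 27025 genes. The stretch around it (chr13:119690179-119690257, plus strand) is shown with the element in capitals.
Hmgcs1: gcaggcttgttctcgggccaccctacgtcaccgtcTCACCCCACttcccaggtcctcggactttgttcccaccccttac

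*Timp3*, an inhibitor of matrix metalloproteases (mm9 chromosome 10, 85811696 to 85811755), had levels of 0.03 in the control, -0.94 at 4 h, -3.83 at 20 h and -4.06 at 32 h, and fell 14.5-fold at 20 h (log2 ratio -3.86 ± 0.24). *Acta2*, smooth muscle alpha-actin (mm9 chromosome 19, 34316060 to 34316119), had 0.04, -2.76, -3.52 and -3.07 and fell 11.8-fold (-3.56 ± 0.23). The control stood alone above the pulsed arrays for *Acta2*, while *Timp3* was within 1 log2 unit of the control at 4 h. *Wisp2* (now *Ccn5*), a secreted matrix-associated protein, had -0.16, -2.69, -3.37 and -3.34 and fell 9.23-fold.

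In the list of SRF and contractile genes, 18 of 20 members were below 0, 4 were at least 2-fold lower (background 2.19%) and 12 at least 1.5-fold lower, with a median of -0.65. After *Acta2* came *Vcl* (vinculin, at focal adhesions), with 0.99 in the control, -0.48 at 4 h, -0.84 at 20 h and -0.92 at 32 h, a 3.56-fold fall. *Fhl2*, a LIM-domain cofactor, fell 2.12-fold and *Tpm1* (tropomyosin) 2.05-fold, although 4 of the 6 *Tpm1* probes were under 1.5-fold, between -0.51 and -0.12. *Tagln* (transgelin), at -0.98, and *Mylk* (myosin light chain kinase), at -0.96, lay just under 2-fold. *Myl9*, a myosin light chain, was detected in the control and at 4 h, at -1.44 and -3.32, but not at 20 h, where it was at least 12.7-fold lower. *Zyx* (zyxin) and *Filip1l* were the 2 members with a ratio above 0, at 0.18 and 0.28, and *Fhl1*, a LIM-domain protein detected at 20 h but not in the control, was at least 1.72-fold higher.

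SRF binds a CArG box, and both strands of the 250 bases before the start were searched for it in the same promoter table. Of 17 contractile list members in the table, 5 held the motif (29.4%), against 1.62% of 27025 genes. The list holds SRF genes by choice, and this share does not use the size of their 20 h ratios. The motif-bearing stretches of the 2 members that fell at least 2-fold and of *Cnn2* (calponin 2) and *Srf* itself, with log2 ratios of -0.67 and -0.37, are shown with the CArG box in capitals: *Vcl* at chr14:20929148-20929215 and *Cnn2* at chr10:79988509-79988588 on the plus strand, *Fhl2* at chr1:43163962-43164027 and *Srf* at chr17:46556180-46556279 on the minus strand. The fifth, *Filip1l*, was above 0, and a match is a description of the letters only.
Vcl: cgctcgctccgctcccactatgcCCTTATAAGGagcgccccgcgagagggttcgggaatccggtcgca
Fhl2: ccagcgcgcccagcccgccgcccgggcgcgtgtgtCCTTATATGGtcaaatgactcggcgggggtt
Cnn2: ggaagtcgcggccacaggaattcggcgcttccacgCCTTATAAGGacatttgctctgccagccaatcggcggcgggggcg
Srf: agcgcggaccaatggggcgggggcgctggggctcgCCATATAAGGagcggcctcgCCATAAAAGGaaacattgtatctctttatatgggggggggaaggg

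YAP/TEAD targets, induced by cell spreading and serum, had a median of -0.45, with 5 of 16 genes at least 2-fold lower and 7 at least 1.5-fold lower. The pair with the largest falls encodes secreted CCN proteins. *Ctgf* (now *Ccn2*, mm9 chromosome 10, 24318281 to 24318340) had -0.05 in the control, -4.28 at 4 h, -3.01 at 20 h and -3.27 at 32 h, and fell 7.78-fold (log2 ratio -2.96 ± 0.22). *Cyr61* (now *Ccn1*) had 1.08, 0.83, -1.10 and -0.96 and fell 4.55-fold, so that its 4 h level stayed near the control where that of *Ctgf* did not. *Ankrd1*, *Crim1* and *Tgfb2* fell 2.15-fold, 2.07-fold and 2.05-fold, and 5 members, with *Foxf2* highest at 0.32, lay above 0.

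The TGF-beta and BMP feedback list had the lowest median of all lists, -0.68, with 8 of 21 genes at least 2-fold lower and 12 at least 1.5-fold lower, while 2 were at least 1.5-fold higher. *Pmepa1*, a membrane protein that limits TGF-beta signaling, had 0.87, 0.77, -1.39 and -1.01 on the 4 arrays and fell 4.78-fold, with both probes below -2. The inhibitory SMADs *Smad6* and *Smad7* fell 2.51-fold each. Of the ID proteins, BMP targets that block helix-loop-helix factors, *Id1* had 2.77, 2.64, 1.17 and 0.49 and fell 3.03-fold, *Id3* fell 2.65-fold and *Id4* 3.78-fold, and *Id2* had -0.86. *Ltbp2*, a latent TGF-beta binding protein of the matrix, fell 2.67-fold. Opposite to these, the receptor *Tgfbr1* had 0.81 and the BMP antagonist *Nog* 0.65. The ligand *Tgfb1* had -0.22.

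Collagen chains had a median of -0.52, with 15 of 17 below 0, 8 at least 1.5-fold lower and 2 past 2-fold. *Col1a1*, the main chain of type I collagen, had 4.26 in the control, 3.55 at 4 h, 3.20 at 20 h and 3.75 at 32 h and fell 2.08-fold, and *Col3a1* fell 2.02-fold. The partner chain *Col1a2* had -0.24. Matrix glycoproteins and proteoglycans had a median of -0.35, with 4 of 28 at least 2-fold lower and none higher. Besides *Timp3* these were *Bgn* (biglycan), which fell 4.36-fold from 1.49 to -0.64, *Mfap4*, a microfibril protein, 4.11-fold, and *Thbs1* (thrombospondin 1) 3.14-fold. Other members lay nearer to the control, among them *Fn1* (fibronectin) at -0.16, *Sparc* at 0.03 and *Dcn* at -0.28.

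**Figure D4:**
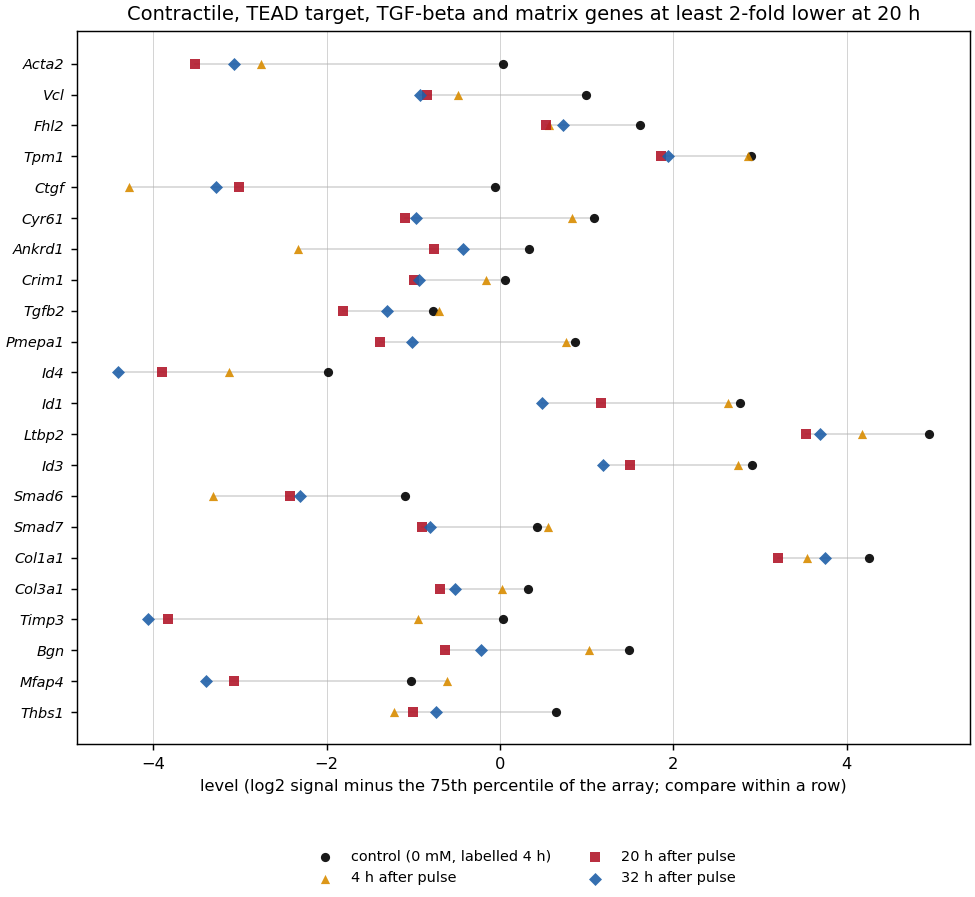
Level on each of the 4 arrays for the 22 genes of the contractile, TEAD target, TGF-beta and BMP, collagen and matrix glycoprotein lists that were at least 2-fold lower at 20 h, 1 row per gene. The control circle is the rightmost point in 19 of 22 rows, and the 20 h square lies left of it in all of them, as these genes were chosen for.

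Matrix proteases split in both directions, with 7 of 21 at least 2-fold lower and 1 higher. *Mmp10*, a stromelysin, had -0.62 in the control, -0.48 at 4 h, -3.25 at 20 h and -3.75 at 32 h and fell 6.16-fold. *Mmp9* (a gelatinase) fell 3.91-fold, *Mmp3* 2.89-fold, the urokinase gene *Plau* 3.03-fold and its receptor *Plaur* 2.25-fold. Above 0, *Adamts1* (an aggrecanase) rose 2.30-fold, from 1.60 to 2.81, and *Adamts5* had 0.92.

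Among secreted growth factors, 6 of the 26 with a ratio were at least 2-fold lower and none higher, with a median of -0.38, and *Dkk2*, a Wnt antagonist detected at 20 h but not in the control, was at least 2.05-fold higher. *Hbegf*, an EGF receptor ligand, had -0.24, 0.73, -2.02 and -1.79 and fell 3.45-fold. *Angptl4* fell 2.95-fold, *Mdk* (midkine) 2.54-fold with 1 probe while the other gave 0.06, *Igfbp4* 2.42-fold and *Vegfa* 2.001-fold. *Adm* (adrenomedullin), a vasodilator peptide on the hypoxia list, had 0.97, 1.395, -1.14 and 0.38 and fell 4.32-fold at 20 h. With *Vegfa* it made up the 2 of 15 hypoxia genes past 2-fold.

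Of 26 NF-kappa-B targets, 3 were at least 2-fold lower, 11 at least 1.5-fold lower and 2 at least 1.5-fold higher, with a median of -0.40. *Cxcl10*, a chemokine, had 1.61, 1.504, -0.67 and -0.81 and fell 4.86-fold. *Lif*, an IL-6 family cytokine, had -1.52 in the control, 1.03 at 4 h, -3.10 at 20 h and -2.39 at 32 h, high at 4 h and low afterwards, and fell 2.997-fold at 20 h. The third gene past 2-fold was *Mmp3*, described above. *Csf1*, a macrophage growth factor, had -2.02 and -2.003 with 2 probes, while the brightest of its 3 probes with a ratio gave -0.88. *Bcl3*, a nuclear IkB protein, went the other way at 0.92. In the promoter table, 4 of 18 list members held a kappa-B motif (22.2%), against 0.300% of all genes. They were *Nfkb2*, *Nfkbia*, *Cxcl1* and *Csf1*, none of them among the 3 genes past 2-fold by their brightest probe. The list holds NF-kappa-B targets by choice, and a match is a description of the letters only.

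Immediate early genes lay on both sides of 0, 13 above and 12 below, with a median of 0.09. Of the 25, 3 were at least 2-fold lower and none higher. At 1.5-fold, 7 were lower (background 5.64%) and 3 higher (background 3.41%). *Egr1*, a zinc finger factor, had 1.56 in the control, 2.96 at 4 h, -0.47 at 20 h and -0.58 at 32 h and fell 4.08-fold, and *Egr2* fell 5.06-fold from a dim -2.22. *Errfi1*, a feedback inhibitor of EGF receptors, fell 2.401-fold. Against these, *Klf6* had 0.77 and *Fosl2* 0.71. *Egr3*, detected at 20 h but not in the control, was at least 1.58-fold higher. *Fos* was not detected in the control or at 20 h.

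Ribosome biogenesis factors had a median of -0.41, with 30 of 32 below 0, 5 at least 1.5-fold lower (background 5.64%) and none past 2-fold, *Dkc1* (dyskerin) furthest at -0.82. All 74 cytosolic ribosomal proteins lay below 0, between -0.43 and -0.04 with a median of -0.21, but without scaling their median was 0.12. Relative to all genes their median was -0.21, and -0.03 with quantile normalization. *Ccnd1* (cyclin D1) had 2.35, 0.86, 1.18 and 1.05 and fell 2.25-fold, the only 1 of 39 G1/S genes past 2-fold. The medians were -0.20 for G1/S and -0.10 for G2/M genes, but without scaling they were 0.13 and 0.23, and the G2/M median was also above 0 with median scaling and with all spike-in probes, though not without the departing one.

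Of 21 p53 targets, 2 were at least 2-fold higher and 6 at least 1.5-fold higher, none was 1.5-fold lower, and the median was 0.31. *Cdkn1a* (p21, the inhibitor of cyclin-dependent kinases) had 0.40 in the control, 3.97 at 4 h, 1.70 at 20 h and 1.72 at 32 h, a 2.46-fold rise at 20 h, although a dim second probe gave -0.63. Another of its probes, not detected in the control, was at least 2.45-fold higher. *Trp53inp1*, a p53-induced stress protein, had 0.75, 2.45, 1.85 and 1.90 and rose 2.15-fold. *Apaf1* had 0.80, *Ccng1* 0.73 and *Gadd45a* 0.72, while *Mdm2* had 0.44 and *Fas* -0.33.

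The stress programs most tied to H2O2 had medians near 0 at 20 h. The Nrf2 list had -0.02 over 26 genes, with 1 gene past 2-fold, *Abcc1*, an exporter of glutathione conjugates, which fell 2.48-fold from 2.16 to 0.85. HSF1 targets had -0.05 over 21 genes, with *Hspa4l* highest at 0.66. Peroxide and glutathione enzymes had -0.05 over 25, with *Glrx* (glutaredoxin) at -0.99. The median level differences of the Nrf2 and HSF1 lists from the control were 0.68 and 0.61 on the 4 h array, and that of the peroxide and glutathione enzymes was -0.12. The 3 medians at 20 h changed sign under other scalings, most of which shift every gene alike, and none of them went past 0.31 in either direction. Relative to all genes, the HSF1 and the peroxide and glutathione medians did not change sign. The Nrf2 median relative to all genes went from -0.02 to 0.01 with quantile normalization. In the promoter table, 5 of 21 Nrf2 list members held the Nrf2-binding ARE, TGACNNNGC (23.8%), against 11.5% of all genes.

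Of 23 clock and clock output genes with a ratio, 20 lay within 1.5-fold (87.0%), near the 90.9% of all genes. *Arntl*, the gene of BMAL1, had -0.08 in the control, 0.999 at 4 h, -0.75 at 20 h and 0.10 at 32 h, and was 1.60-fold lower at 20 h (log2 ratio -0.67 ± 0.21). Its partner *Clock* had -0.03. The nuclear receptors differed among themselves: *Rora*, an activator of *Arntl*, had 0.56, and the repressors *Nr1d2* and *Nr1d1* had 0.37 and -0.17. Of the period and cryptochrome genes, *Cry2* had 0.42, *Per1* 0.17 and *Cry1*, a dim probe, 0.05 ± 0.40. The kinase genes *Csnk1e* and *Csnk1d*, which phosphorylate PER, had 0.21 and -0.08.

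*Per2* was at the detection limit, with -4.68 in the control and -4.65 at 20 h, and only the second counted as detected, so the ratio has only a bound, at least 1.02-fold higher at 20 h. *Per3* was likewise at least 1.13-fold higher. The nuclear receptor gene *Rorb*, with -3.76 in the control and not detected on the other arrays, was at least 2.55-fold lower at 20 h. Among outputs, *Nfil3*, a repressor of D-box genes, had 2.69, 3.30, 3.70 and 3.84 and rose 2.01-fold, and *Dbp*, an activator of the same genes, had -0.05, -1.39, 0.65 and -0.02, highest at 20 h, with a log2 ratio of 0.70. *Klf10* had -0.43, *Klf9* 0.29, and the remaining 8 outputs lay between -0.19 and 0.15. All 11 core clock genes with a ratio were highest on the 4 h array, as were 51.0% of all genes. Among those with a bound only, *Per2* was also detected at 4 h, at -4.46, while *Per3* and *Rorb* were not.

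**Figure D5:**
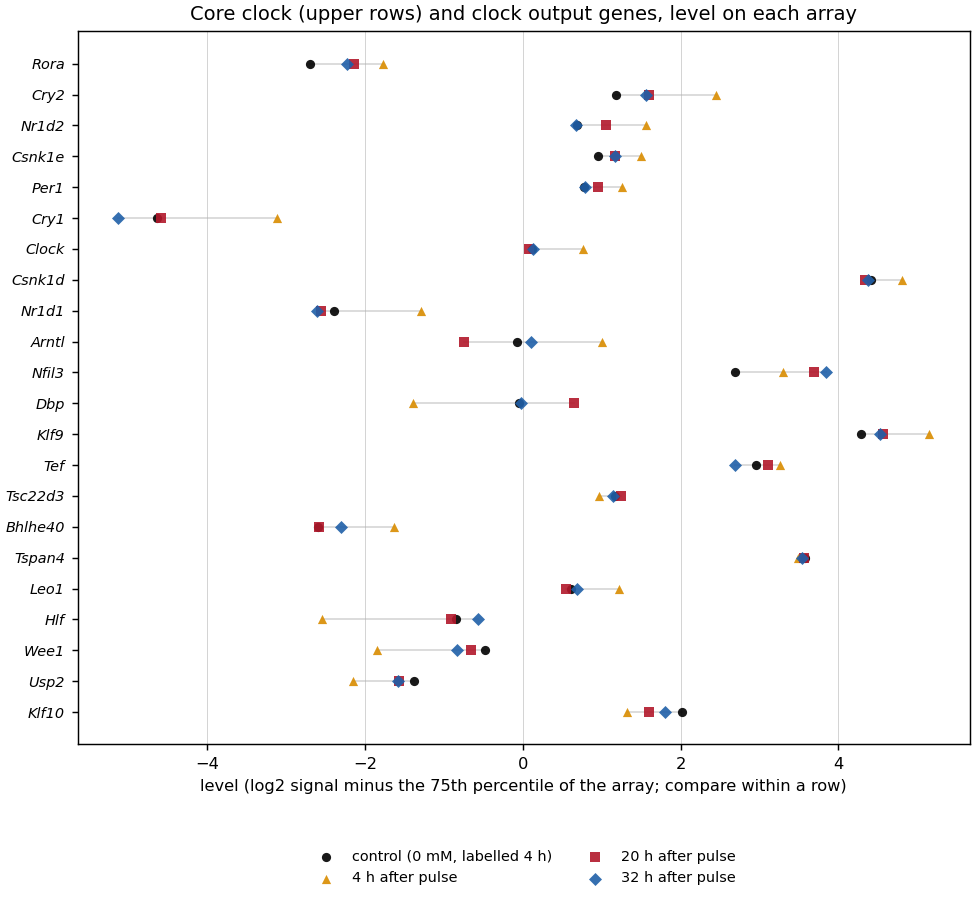
Level of 10 core clock genes (upper rows, Rora to Arntl) and 12 clock output genes (lower rows, Nfil3 to Klf10) on each of the 4 arrays. The 20 h square lies close to the control circle in most rows, with Arntl to its left and Nfil3 and Dbp to its right, and the 4 h triangle is the rightmost point in all 10 upper rows.

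In the promoter table, 2 of 9 core clock genes (*Per1* and *Cry1*) held the E-box CACGTG, the site of BMAL1:CLOCK, in the 250 bases before the start (22.2%), as did 2 of 9 outputs (*Tef* and *Tspan4*), against 6.86% of all genes. None of these 4 genes was past 1.5-fold. The variant CACGTT was present in 3 core clock genes (*Cry1*, *Cry2* and *Nr1d1*) and in no output, against 4.50% of all genes. The D-box (TTATGTAA or TTACGTAA) was found in none of the 9 genes of either list, against 1.10% of all genes.

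Beyond the lists, the largest rises came from dim probes. *Tnfsf14*, a TNF family ligand (mm9 chromosome 17, 57329192 to 57329251), had -2.99 in the control, -4.20 at 4 h, -0.77 at 20 h and -0.50 at 32 h, and rose 4.66-fold (log2 ratio 2.22 ± 0.23). *Casp14*, a keratinocyte caspase, had -4.20, -4.18, -2.04 and -4.04 and rose 4.46-fold on the 20 h array alone, and *Prr9* (4.04-fold) and *Rbm41* (4.27-fold) were likewise highest at 20 h and under 1.5-fold from the control at 32 h. *Dnajb8* (3.41-fold) was highest at 20 h and not detected at 32 h. *Elavl3* rose 3.96-fold but stood higher still at 4 h. *Nipal3*, with -2.49 at 20 h and -2.54 at 32 h, and *Lrrc14b*, with -2.69 and -2.73, were alike at both times. Among brighter probes outside the cholesterol list, *Atp6v0e2*, a proton pump subunit, had 1.18 in the control, 1.30 at 4 h, 2.44 at 20 h and 2.51 at 32 h and rose 2.397-fold. The *Cdkn1b* (p27) probe with a 4.25-fold rise had a brighter partner at 0.27, and the *Rbm41* and *Ino80e* probes had partners at 0.12 and -0.02.

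Among brighter probes that fell, *Cgref1*, a secreted growth regulator, had 2.74, 3.03, 0.18 and 0.25 and fell 5.90-fold between arrays that were alike at 4 h and the control and alike at 20 h and 32 h. *Prrx2*, a mesenchymal homeobox factor, had 3.49 in the control and between 1.07 and 1.47 on the pulsed arrays, and fell 4.06-fold. *Pcdh19* (a protocadherin) fell 5.32-fold, *Prkg2* (a cGMP-dependent kinase) 3.17-fold and *Mmd* 3.15-fold with 1 probe, while its brightest probe fell 2.07-fold and another 2.05-fold. For *Trib1* the 8.05-fold fall of 1 dim probe stood against 0.25 and 0.32 at its 2 brighter probes. The other large falls were of dimmer probes, with the retinal matrix gene *Impg2* (10.5-fold), the muscle genes *Nrap* (6.94-fold, second probe at 0.03) and *Murc* (now *Cavin4*, 6.60-fold), the chemokine *Ccl9* (6.48-fold) and the zinc finger gene *Bnc1* (6.36-fold). For *Impg2*, *Murc* and *Bnc1* all 3 pulsed arrays lay more than 1 log2 unit below the control.

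On 1 array only, 1302 probes were detected at 20 h and 609 in the control. A bound of at least 2-fold was reached by 157 of the first and 317 of the second, but by 261 and 203 without scaling, and by 71 and 123 where the other array also lacked a positive and significant signal. The lowest detected level was -5.11 at 20 h and -4.76 in the control. Where it set the bound, probes detected only in the control reached 2-fold from a lower level. The largest bounds at 20 h were those of *Rhox10* (at least 13.1-fold), *Gprc5d* (12.6), *Vmn1r202* (11.3) and *Adam33* (10.9), of which *Gprc5d* was also detected, at -4.74, on the 4 h array. The largest in the control were those of *Vmn1r183* (at least 18.8-fold lower at 20 h), *Myl9* (12.7), *Atp1b2*, a sodium pump subunit (10.1), and *Pik3cd*, a PI3-kinase (9.89). Second probes of *Rhox10*, *Adam33*, *Vmn1r183* and *Pik3cd* were detected on both arrays and had log2 ratios between -0.08 and 0.66. Among 52 olfactory receptors with a ratio, genes known from the nasal epithelium, 2 were at least 2-fold higher (*Olfr319* and *Olfr1466*) and 2 lower (*Olfr1500* and *Olfr821*).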

How the data were processed

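RNA of NIH-3T3:Per2-Luc was hybridized to 4 one-color Agilent 4x44K v2 arrays on 1 slide. For each spot the authors deposited intensities of the scanner software (Agilent Feature Extraction 10.7.3.1), corrected for background, and flags. A signal table that the authors also deposited holds these intensities over an array-wide constant. Probe positions are mm9, per the file headers.

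From the deposited intensities, log2 signals were averaged over the spots of a probe, without outlier spots, and set relative to the 75th percentile per array. Detection required the well-above-background flag on 50% or more of the spots. Ratios needed detection on both arrays. A probe detected on 1 array got a bound, against whichever was greater on the other array, its lowest detected level or the level of that probe. Each gene was represented by its brightest probe with a ratio. Called means at least 2-fold. With 1 array per condition, the SAM test that the methods name was not run.

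The comparison and the gene lists were chosen with earlier results of these data known. Genes were named by rule: the 12 largest ratios each way, the same among brighter probes, list members past 2-fold (at most 6, or the 2 furthest from 0), all clock genes and the 4 largest bounds each way. Other list members and second probes given were chosen after their values were seen. Some genes are not reported here. Symbols are those of the array, and 27228 of 39429 probes matched a current RefSeq accession. Promoters are from RefSeq (GRCm38.p6), which is another build than that of the probes. No columns of other samples were in the table. Alternatives were other scalings and background corrections, detection rules, fold thresholds and the median over probes. The scaling, the ratio and the 2-fold call were tested on simulated data, with the same noise for all probes and detection copied from the control. Bounds, gene lists and the choice of probe were not tested in this way. Tools were Python 3.11.15, numpy 2.4.6, pandas 2.3.3, and limma 3.58.1 in R 4.3.3 for 1 alternative.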

Additional observations from a re-analysis of the deposited data

Results flagged for a closer look

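Of the named genes past 2-fold at 20 h, 5 were past 2-fold in the opposite direction at 4 h, both against the same control array. These differences between times were not tested, as each rests on 1 array per time. *Tnfsf14* had a log2 ratio of 2.22 at 20 h and -1.20 at 4 h. The other 4 were high at 4 h and low at 20 h. *Egr1* had -2.03 at 20 h and 1.39 at 4 h. *Lif* had -1.58 and 2.55, the widest gap of the 5. The amino acid transporter gene *Slc7a5*, an ATF4 target, had -1.29 and 1.70, although its second probe gave 0.12 at 20 h. *Vegfa* had -1.001 and 1.20. None of the named genes past 2-fold at 20 h was past 2-fold the other way at 32 h.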

How the results depend on the processing

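Of 8 alternatives, 5 shift every gene alike and cannot move a value relative to all genes. Under the other 3 (quantile normalization, normexp and the median over probes), 98 of 105 list medians relative to all genes moved by under 0.1. The largest moves were those of interferon-stimulated genes with normexp, from 0.30 to 0.11, and of ribosomal proteins with quantile normalization, from -0.21 to -0.03, and 6 values of 4 lists changed sign, the furthest from 0 being matrix proteases at -0.15. The median over all genes moved by 0.33 without scaling, 0.20 with spike-in scaling and 0.10 with median scaling. The counts of probes, 144 higher and 420 lower with 25.5% of them higher, moved more. They were 293, 259 and 53.1% with spike-in scaling, which rests on 1 of 8 spike-in probes at -0.74 where the other 7 lay at 0.17 to 0.31; without it, an alternative added after seeing the data, they were 180, 348 and 34.1%. Without scaling they were 491, 194 and 71.7%, and with median scaling the share was 38.5%. With normexp background correction 54 were higher and 260 lower, without the detection filter 1090 and 2166, and with the weaker flag for positive and significant signals 536 and 1204. At 1.5-fold they were 703, 1153 and 37.9%, and at 3-fold 19, 111 and 14.6%. Among brighter probes, added after seeing the data, they were 38 and 123. The 157 and 317 probes past 2-fold by bound became 261 and 203 without scaling, and 71 and 123 where the dim array also lacked a positive and significant signal, both alternatives added after seeing the data. The cause of these moves was not tested beyond the construction of each setting. Under the same 3 alternatives there were 411 values of named genes relative to all genes. Of these, 388 stayed on their side of 2-fold, 19 fell below it and 3 passed it. The remaining 1 was past 2-fold and changed sign: *Trib1* was at 0.26 as the median of its probes. A change of sign was counted only for genes past 2-fold. No paired analysis was possible because each condition has 1 array. Replicate error could not be measured, and dim probes rest on signals near the background.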

Other observations

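Interferon-stimulated genes had a median log2 ratio of 0.30 over 19 genes at 20 h vs. the control, with 3 at least 1.5-fold higher and none past 2-fold. Of those detected on 1 of both arrays, *Mx2* was at least 2.06-fold higher and *Oasl1* at least 2.87-fold lower at 20 h. *Gbp2*, a guanylate-binding GTPase, had levels of -0.35 in the control, -0.32 at 4 h, 0.48 at 20 h and 0.19 at 32 h. *Ifit3* had 0.72 and *Stat2*, which carries the interferon signal to the nucleus, 0.69, while *Ifit1* had -0.53 and *Oasl2* -0.47. With normexp background correction the median of the list was 0.07. Among cell cycle inhibitors and quiescence genes the median was 0.15, with *Rb1*, the retinoblastoma gene, at 0.80, *Tob1* at 0.65 and *Cdkn2d* at 0.58, and *Gas2*, an actin-associated protein, fell 2.04-fold. Replication-dependent histones had a median of 0.07 over 32 genes, with *Hist1h2bc* at 0.81.

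Energy genes differed little. The 60 subunits of oxidative phosphorylation had a median of 0.09 with 50 above 0 and none past 1.5-fold. The glycolysis list had -0.12, which was above 0 without scaling, with *Hk2* (hexokinase 2) at -0.95 and *Slc2a1*, the main glucose transporter of fibroblasts, at 0.50. Of the CK2 kinase subunits, *Csnk2b* had 0.35, *Csnk2a1* 0.24 with its brightest probe and between 0.02 and 0.11 with the other 3, and *Csnk2a2* -0.02. The 31 proteasome subunits had a median of 0.03. ATF4 targets had -0.20 and ER stress genes -0.13, both above 0 without scaling. The medians of the glycolysis, ATF4 and ER stress lists were also above 0 with spike-in scaling, but not without the 1 spike-in probe that departed from the others.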
